A study of Ictidomys tridecemlineatus with 15 samples.

Results

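The genes described here encode subunits and accessory proteins of the vacuolar H+-ATPase (V-ATPase). They were measured by global run-on sequencing (GRO-seq) in livers of female 13-lined ground squirrels (Ictidomys tridecemlineatus). In GRO-seq, polymerases paused or moving along genes in extracted nuclei extend their RNA in a labelled reaction, so that the reads count nascent RNA rather than the RNA that has built up in the cell. Of 10 named V-ATPase genes, 6 were found by symbol in the deposited count table of 6324 transcription units. Atp6v1a, Atp6v1b2, Atp6v1e1, Atp6v0a1 and Atp6v0d1 each had a unit of their own, and Atp6v1c1 shared a merged unit with the gene model G30946. Atp6v1h, Atp6v1d, Atp6ap1 and Atp6ap2 had no unit under their symbols and were not analysed here.

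The animals were laboratory housed, came from a breeding colony and carried implanted temperature recorders, and none had a genetic change or drug treatment in the labels. The 5 states were summer active (SA, warm, before hibernation), interbout aroused (IBA, warm, between bouts of torpor), entrance into torpor (Ent, cooling), early torpor (ET, cold) and late torpor (LT, cold). SA, IBA, Ent and ET had 3 animals each and LT had 2, and each library came from a separate animal. LT replicate 2 was not used here. All ET animals came from a collection season of their own, all IBA animals from another and both LT animals from yet another. SA and Ent mixed the IBA and LT seasons. State and season cannot be told apart in any comparison with ET. IBA and LT shared no season, so their direct comparison mixes state and season as well. A fit with season as a covariate separates them only through the SA and Ent animals.

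The V-ATPase hydrolyses ATP to pump protons into lysosomes, endosomes and the Golgi. Its peripheral V1 sector holds a ring of alternating A and B subunits that binds ATP, and rotation of a central stalk drives protons through the membrane-embedded V0 sector. The pump can be taken apart into V1 and V0 and put together again, and at the lysosome it works with the Ragulator complex that brings mTORC1 to the membrane. In hepatocytes, lysosomal acidification serves the breakdown of material delivered by autophagy and endocytosis.

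On the HiC_Itri_2 genome, Atp6v1a occupied Itri7 from 136204066 to 136263895 on the minus strand, a unit of 59.8 kb. Atp6v1b2 lay on the minus strand of Itri17 from 14257136 to 14284790 and spanned 27.7 kb, and the unit next upstream in the table was Lpl, on the same strand and 172 kb away. The merged Atp6v1c1 unit lay on the minus strand of Itri6 from 33175516 to 33249126. Atp6v1e1 ran from 110350340 to 110375272 on Itri4 (plus strand) and was overlapped by the unit Slc25a18:CECR2 on the opposite strand. How strand was treated in counting was not given in the sources used here, so reads of these overlapping units may not be fully separated. Atp6v0a1 lay on the minus strand of Itri7 from 19778549 to 19838978, and Atp6v0d1 on the plus strand of Itri16 from 41662161 to 41700387. Each unit is a gene body of exons and introns together, without the first 500 nt after the annotated start. Where transcription was called past the annotated end of a gene, the authors extended the unit to cover it. They report that polymerase reached further past gene ends as animals went from Ent through ET to LT. The part of such reads in the values of these units was not tested.

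Libraries held between 3713883 and 8884763 counts, and no library left a member with fewer than 102 reads or more than 1461. Hepatocyte markers were abundant in every library, with 5 of 6 listed genes having a unit and a summed level of 11983 to 21450 CPM (counts scaled to the normalized library size) in SA, 12705 to 18221 in IBA, 9710 to 11973 in Ent, 4765 to 8542 in ET and 6080 to 9634 in LT. Alb and Apoa1 lay in merged units, and Cps1 had the largest mean in SA (7452 CPM), where its libraries ran from 2643 to 13658 CPM. The mean of Apob was 3228 CPM in SA and 3781 in LT, whereas those of Alb, Apoa1, Ttr and Cps1 were lower in LT than in SA. Of 6 Kupffer cell and macrophage markers 1 had a unit, Cd68 within a merged unit. This unit had 420 to 607 CPM in SA, 374 to 451 in IBA, 236 to 523 in ET and 489 to 509 in LT. No stellate cell or lymphocyte marker had a unit. The endothelial sum of Pecam1 and Kdr, which stand for 2 of 4 listed markers, was 166 to 184 CPM in IBA, 84.7 to 139 in ET and 73.8 to 91.2 in LT. Sox9, the listed cholangiocyte marker with a unit (1 of 4), had 16.5 to 36.0 CPM in IBA and 7.07 to 10.1 in LT. The part of these shifts in the V-ATPase values was not tested, and a change in the share of nuclei of a cell type cannot be told apart from a change in transcription per nucleus.

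The CPM use library sizes normalized by the TMM (trimmed mean of M-values) method, and a rise or fall is called at an adjusted p of 0.05. Every rise or fall is therefore relative to the other units of a library. The authors state that scaling by library size hides differences in total transcription between states, so absolute changes were not measured here. Adjusted p-values come from edgeR's quasi-likelihood test over all 6324 units with Benjamini-Hochberg adjustment, and log2 changes carry their standard error (SE). The units of Atp6v1b2 and Atp6v0d1 were higher in LT than in IBA, by 1.80-fold and 1.83-fold, and those of Atp6v1a, Atp6v1e1, Atp6v0a1 and Atp6v1c1 were not called in any comparison. Among the 5 states, 2 of 6 members were called, Atp6v1b2 (adjusted p = 0.00037) and Atp6v0d1 (adjusted p = 0.025), where 62% of all units were called. Both were called higher from IBA to LT, where 49.8% of all units were called and 24.8% were called higher. Atp6v1b2 alone was called from Ent to ET, where 28.8% of all units were called and 15.3% were called higher. The share of members called was below that of all units in the test among the states. The study set its threshold of 0.001 on DESeq2 tests. At 0.001 in the edgeR test used here, Atp6v1b2 was called among the 5 states, beside 25.5% of all units. No member was called at 0.001 from Ent to ET (2.21% of all units), from IBA to LT (17.4%) or from Ent to LT (2.29%). Among the 5 states edgeR called 1612 units at 0.001 and DESeq2 called 3164, so the 2 tests are not alike at this threshold.

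**Figure D1:**
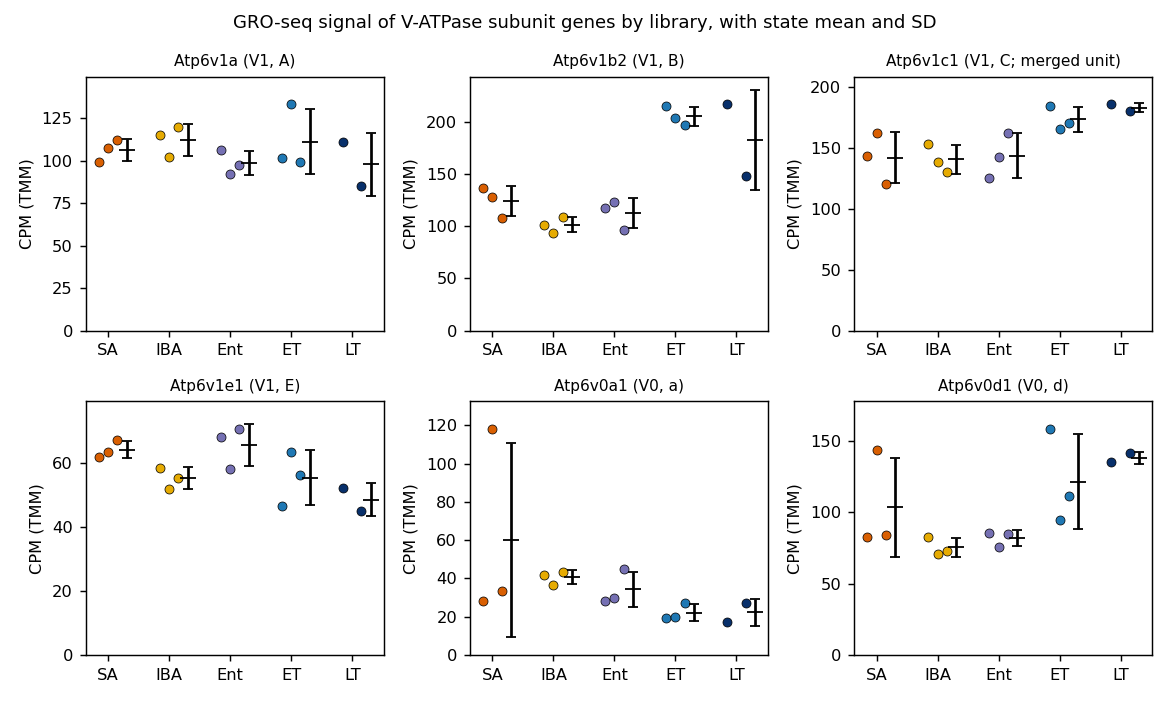
TMM-normalized CPM (vertical axis, from 0) of the 6 V-ATPase members in each library by state (horizontal axis), with 1 point per animal and the mean ± SD of the state beside the points. All 5 ET and LT libraries were above all 9 others for Atp6v1b2 and the merged Atp6v1c1 unit, as in 14% of all units. For Atp6v0a1, whose SA replicate 2 reached 118 CPM, they were below all 9 others, as in 11.1% of all units.

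In the V1 ring, the A subunit (Atp6v1a) carries the catalytic site and the B subunit (Atp6v1b2) completes it from the neighbouring position. Atp6v1b2 had 137, 128 and 108 CPM in the SA libraries, 102, 94.1 and 109 in IBA, 118, 124 and 96.4 in Ent, 215, 204 and 197 in ET, and 217 and 149 in LT. Every cold library was above every library of the other states, a separation that 14% of all units showed in this direction. From Ent to ET the unit rose by 0.87 on the log2 scale (SE 0.15), or 1.82-fold (adjusted p = 0.0019). From IBA to LT it rose by 0.85 (SE 0.17), or 1.80-fold (adjusted p = 0.0014).

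Atp6v1b2 did not differ detectably between SA and IBA (log2 change −0.29, 95% interval −0.63 to 0.045), between IBA and Ent (0.15, interval −0.19 to 0.49) or between ET and LT (−0.17, interval −0.54 to 0.20). It was also higher in LT than in Ent, by 0.70 (SE 0.17, adjusted p = 0.0099). The LT libraries lay far apart, and without LT replicate 1 the IBA to LT change was 0.55 (adjusted p = 0.037) and the Ent to LT change 0.40, no longer called (adjusted p = 0.19).

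The change of Atp6v1b2 was also examined within season. Within the season that held both LT animals, SA replicate 1 had 137 CPM and Ent replicates 1 and 2 had 118 and 124, all below the LT values of 217 and 149. Fitted on those Ent and LT libraries alone, the change was 0.60 (SE 0.20, adjusted p = 0.074). With season as a covariate, the IBA to LT change was 0.58 (SE 0.22, adjusted p = 0.059). The direction was upward in both fits and neither passed the threshold, whereas the Ent to LT rise with season as a covariate did.

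Atp6v1a, which makes the ring together with Atp6v1b2, had 99.1, 108 and 112 CPM in SA, 115, 102 and 120 in IBA, 106, 92.4 and 97.7 in Ent, 101, 133 and 98.9 in ET, and 111 and 84.8 in LT. All states overlapped. The log2 change from IBA to LT was −0.20 (95% interval −0.56 to 0.16, adjusted p = 0.34) and from Ent to ET 0.17 (interval −0.15 to 0.49, adjusted p = 0.41). With the interval's upper end at 0.16, a rise from IBA to LT of the size measured for Atp6v1b2 lay outside it.

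The reads on Atp6v1b2 and Atp6v1a can be set against each other within a library, where library scaling cancels. Per read on Atp6v1a there were 1.38, 1.19 and 0.966 reads on Atp6v1b2 in SA, 0.886, 0.922 and 0.906 in IBA, 1.11, 1.34 and 0.986 in Ent, 2.12, 1.53 and 2.00 in ET, and 1.96 and 1.75 in LT. The lowest cold ratio, 1.53, was above the highest ratio of the other states, 1.38. Averaged on the log scale, the ratio in the 5 cold libraries was 1.81 times that in the 6 SA and IBA libraries. Within the season that held the LT animals, the SA ratio was 1.38 and the LT ratios were 1.96 and 1.75. These ratios were chosen after the values had been seen and are given as a description.

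The C subunit (Atp6v1c1) joins the stalks to the V0 sector and is released when the pump comes apart. Its merged unit with G30946, whose reads cannot be divided between them, had 143, 162 and 120 CPM in SA, 154, 139 and 130 in IBA, 126, 143 and 163 in Ent, 185, 166 and 171 in ET, and 186 and 181 in LT. Every cold library was above every other library, as in 14% of all units, by a margin as small as 166 against 163 CPM. The log2 change from IBA to LT, 0.38 (SE 0.15), narrowly missed the threshold (adjusted p = 0.0503), and that from Ent to ET was 0.27 (SE 0.13, adjusted p = 0.15). DESeq2 and limma-voom placed the IBA to LT change just inside it, with adjusted p = 0.026 and 0.0496. In all, 10 of 25 alternatives called this change.

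The E subunit (Atp6v1e1) forms the peripheral stalks together with the G subunit. Atp6v1e1 had 61.7, 63.5 and 67.0 CPM in SA, 58.5, 51.8 and 55.4 in IBA, 68.1, 58.2 and 70.7 in Ent, 46.4, 63.4 and 56.2 in ET, and 52.2 and 44.9 in LT. The log2 change from Ent to LT was −0.44 (SE 0.16, adjusted p = 0.059). It was called under 4 of 27 alternatives, DESeq2 among them (adjusted p = 0.042). From IBA to LT the change was −0.19 (95% interval −0.53 to 0.16, adjusted p = 0.35). Per read on Atp6v1e1 there were 3.21 to 4.64 reads on Atp6v1b2 in the cold libraries. In SA and IBA there were 1.62 to 2.21, and in Ent 1.36 to 2.13. This pair was also chosen after the values had been seen, and Atp6v1b2 by itself already separated the cold libraries from the others.

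**Figure D2:**
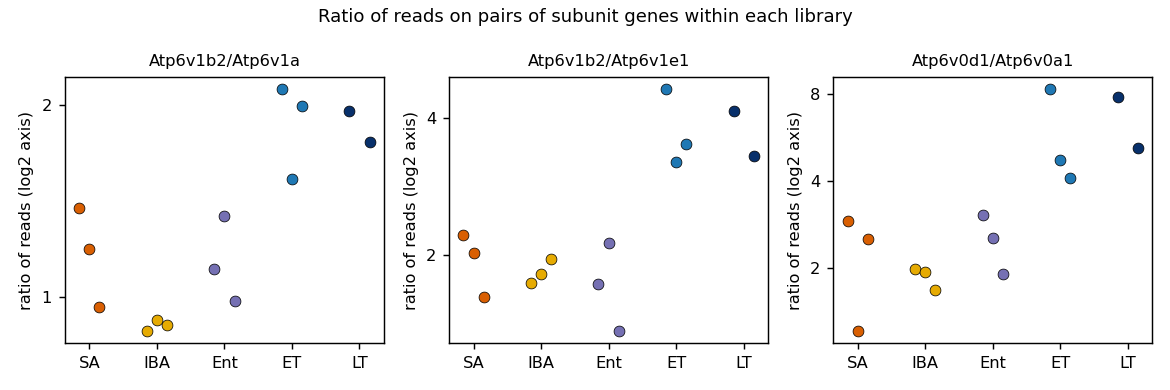
Reads on Atp6v1b2 per read on Atp6v1a, on Atp6v1b2 per read on Atp6v1e1, and on Atp6v0d1 per read on Atp6v0a1 within each library (vertical axis, log2 spacing) by state (horizontal axis), 1 point per animal. In the left panel the ET and LT libraries lie between 1.53 and 2.12 and the SA and IBA libraries between 0.886 and 1.38.

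In the V0 sector, the a subunit (Atp6v0a1) holds the path by which protons cross the membrane, and its isoforms direct the pump to different membranes. Atp6v0a1 was the member with the lowest signal, with 28.4, 118 and 33.4 CPM in SA, 41.8, 36.4 and 43.4 in IBA, 28.1, 29.8 and 44.8 in Ent, 19.1, 20.0 and 27.1 in ET, and 17.4 and 27.2 in LT. The cold libraries were below all others, the highest at 27.2 and the lowest of the rest at 28.1 CPM, a separation that 11.1% of all units showed in this direction. The log2 change from IBA to LT was −0.86 (SE 0.51, adjusted p = 0.18) and from Ent to ET −0.63 (SE 0.45, adjusted p = 0.31).

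SA replicate 2 set the spread of this unit. Without it, the IBA to LT change was again −0.86, with an SE of 0.27, and was called (adjusted p = 0.018), and the SA to IBA change turned from −0.55 to 0.39 with neither called. The neighbouring units did not share the high value, since the upstream unit STAT5A_containing had 55.2, 50.1 and 55.7 CPM in SA and the downstream unit of Mlx, Coasy, Hsd17b1 and Naglu had 109, 104 and 87.2. In SA replicate 2, 1.80% of all units were more than 2-fold above both other SA libraries, against 1.15% in SA replicate 1 and 0.854% in SA replicate 3. With season as a covariate, the IBA to LT change of Atp6v0a1 was 0.15 (SE 0.59, adjusted p = 0.87), so that its direction was not settled apart from season.

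The d subunit (Atp6v0d1) couples the rotating ring of V0 to the central stalk. Atp6v0d1 had 82.9, 144 and 83.9 CPM in SA, 82.7, 70.7 and 72.6 in IBA, 85.7, 75.6 and 85.1 in Ent, 159, 94.9 and 111 in ET, and 135 and 141 in LT. SA replicate 2, at 144 CPM, lay within the range of the ET and LT libraries. From IBA to LT the unit rose by 0.88 (SE 0.25), or 1.83-fold (adjusted p = 0.011), and from Ent to ET the change was 0.57 (SE 0.22, adjusted p = 0.073).

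From Ent to LT, Atp6v0d1 rose by 0.75 (SE 0.24, adjusted p = 0.038), and this made 2 members called higher in a comparison where 27% of all units were called and 13.5% were called higher. Fitted on the Ent and LT libraries of the same season, its change was 0.78 (SE 0.14, adjusted p = 0.017). The Ent to LT call was lost under 9 of 27 alternatives, among them the replicate block (0.76, adjusted p = 0.063) and leaving out any Ent or LT library or IBA replicate 3. With season as a covariate its IBA to LT change was 1.14 (SE 0.34, adjusted p = 0.023). Without LT replicate 3 the IBA to LT change was 0.84 and narrowly missed the threshold (adjusted p = 0.054).

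The V0 members were set against each other in the same way. Per read on Atp6v0a1 there were 4.09 to 8.28 reads on Atp6v0d1 in ET and LT, 1.21 to 2.92 in SA and IBA, and 1.90 to 3.05 in Ent. The lowest SA and IBA ratio was that of SA replicate 2, and without it they began at 1.67. This pair too was chosen after the values had been seen.

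The other comparisons of neighbouring states called no member. From SA to IBA 5.22% of all units were called, from IBA to Ent 16.1%, and between the torpid states (ET to LT) 0.269%. None of the 6 reached an unadjusted p under 0.05 in these comparisons, and DESeq2 and limma-voom also called 0. The members' log2 changes lay between −0.55 and 0.079 from SA to IBA, between −0.24 and 0.25 for the step from IBA to Ent, and between −0.19 and 0.18 from ET to LT. From IBA to LT the 6 members had a median log2 change of 0.10, with 3 above and 3 below 0, beside a median of −0.047 over all units. From Ent to ET their median was 0.22, with 4 above 0, beside −0.012 over all units.

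**Figure D3:**
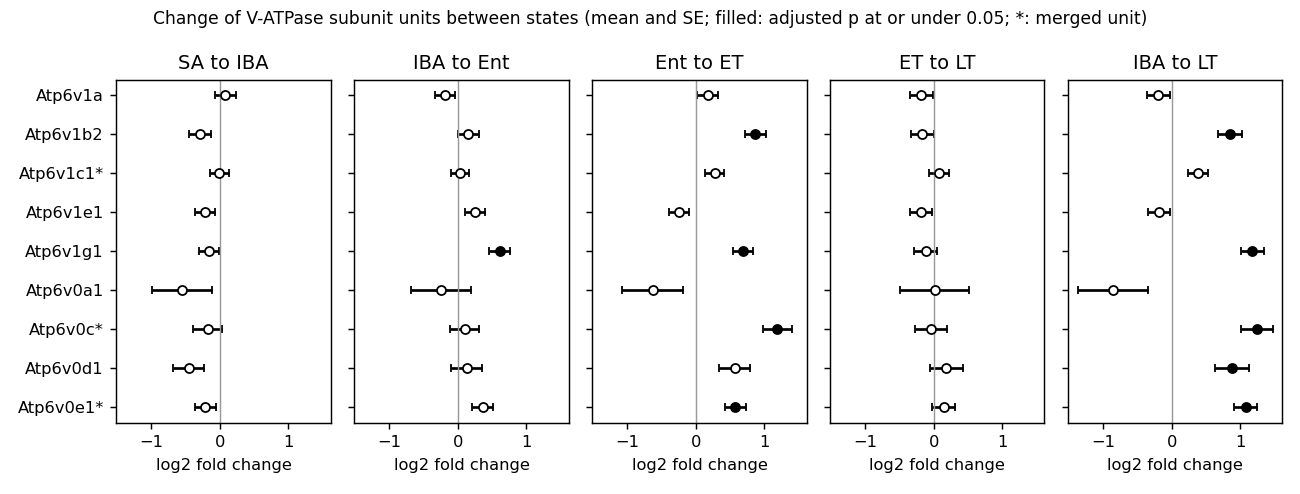
Log2 fold change (horizontal axis) with its SE for the 6 members and 3 other V-ATPase subunit units (vertical axis) in 5 comparisons of states, filled where the adjusted p was at most 0.05 and starred where the unit is merged. Filled points lie at 0.85 and 0.88 for Atp6v1b2 and Atp6v0d1 from IBA to LT, and no point is filled from SA to IBA or from ET to LT.

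Levels of different genes were compared per kb of unit. Over the 14 libraries Atp6v1b2 had a mean of 5.16 CPM per kb, above 85.9% of single-gene units, and Atp6v0a1 had 0.609, above 6.08% of them. Atp6v0d1 had 2.66, Atp6v1e1 2.34, the Atp6v1c1 unit 2.10 and Atp6v1a 1.77 CPM per kb, near the median of single-gene units of 2.16. In IBA the order was Atp6v1b2 (3.67 ± 0.265 CPM per kb, SD, n = 3), Atp6v1e1 (2.22 ± 0.135), Atp6v0d1 (1.97 ± 0.169), the Atp6v1c1 unit (1.91 ± 0.161), Atp6v1a (1.88 ± 0.155) and Atp6v0a1 (0.671 ± 0.0611). The Atp6v0d1, Atp6v1c1 and Atp6v1a levels differed by less than their SDs.

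In LT the per-length order had changed below Atp6v1b2 (6.61 ± 1.75 CPM per kb, SD, n = 2), to Atp6v0d1 (3.61 ± 0.116), the Atp6v1c1 unit (2.49 ± 0.0529), Atp6v1e1 (1.95 ± 0.205), Atp6v1a (1.63 ± 0.307) and Atp6v0a1 (0.369 ± 0.115). Of the summed per-length signal of the 6 members, Atp6v1b2 made up 29.8% ± 1.41 in the IBA livers (SD, n = 3). Its part was 42.7% ± 0.184 in the ET livers (SD, n = 3). Among SA livers it ran from 27.4% to 36.2% (mean 31.4%), and among Ent livers from 26.5% to 35.1% (mean 31.3%). The 2 LT livers had 35.4% and 43.3% (mean 39.3%), so the SA and LT shares overlapped. Atp6v1e1 made up 18.0% ± 0.262 in IBA and 11.7% ± 0.232 in LT. These levels cover exons and introns alike, and any stretch past the annotated end that the unit includes.

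**Figure D4:**
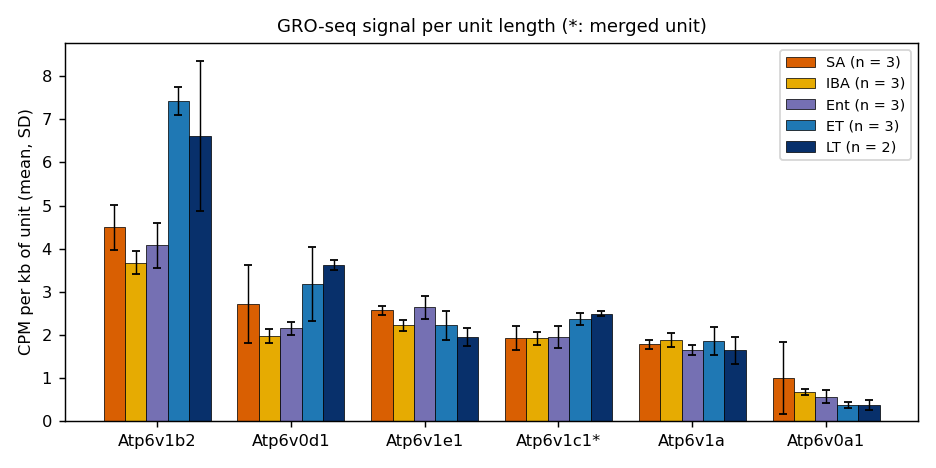
Mean CPM per kb of unit (vertical axis, from 0) with its SD for each member (horizontal axis) by state, with 3 animals per state and 2 in LT, starred where merged. Atp6v1b2 was highest in every state, at 3.67 CPM per kb in IBA and 7.43 in ET, and Atp6v0a1 lowest.

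Of 17 other subunit and isoform genes listed, 3 had a unit, and all 3 rose from IBA to LT, where 24.8% of all units were called higher. The G subunit (Atp6v1g1), the stalk partner of the E subunit, had 61.7, 61.6 and 50.3 CPM in SA, 50.3, 54.3 and 50.4 in IBA, 65.9, 86.9 and 84.1 in Ent, 149, 115 and 116 in ET, and 120 and 113 in LT. It rose from IBA to Ent by 0.61 (SE 0.15, adjusted p = 0.018) and from Ent to ET by 0.68 (SE 0.15, adjusted p = 0.0055). From IBA to LT it rose 2.26-fold, by 1.17 on the log2 scale (SE 0.17, adjusted p = 0.00013).

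Atp6v0c, whose product builds the rotating proteolipid ring, shared a merged unit with Amdhd2. This unit had 51.8, 70.1 and 39.9 CPM in SA, 45.5, 55.2 and 41.5 in IBA, 49.5, 54.7 and 47.7 in Ent, 146, 101 and 99.1 in ET, and 102 and 121 in LT. It rose from Ent to ET by 1.19 (SE 0.21, adjusted p = 0.0019) and from IBA to LT by 1.24 (SE 0.23, adjusted p = 0.00090). The unit of Bnip1, Crebrf, G1618 and Atp6v0e1 rose by 1.08 (SE 0.17, adjusted p = 0.00026) from IBA to LT, from 238 ± 8.24 (SD, n = 3) to 503 ± 79.5 CPM (SD, n = 2). Its reads cannot be assigned to Atp6v0e1, the small membrane subunit e. In all 3 units every cold library was above every other library, as in 14% of all units.

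**Figure D5:**
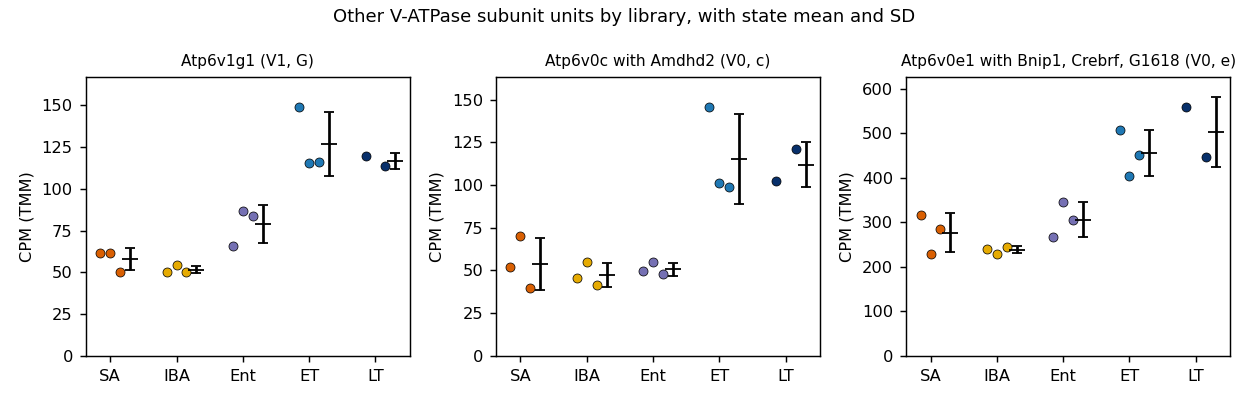
TMM-normalized CPM (vertical axis, from 0) of the other subunit units in each library by state (horizontal axis), 1 point per animal, with the mean ± SD beside the points. Atp6v1g1 stood at 50.3 to 54.3 CPM in IBA, 65.9 to 86.9 in Ent and 113 to 149 in ET and LT.

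Genes that assemble or regulate the pump, or work beside it at the lysosome, were taken from lists. Together with the 3 other subunit units, 32 listed units were tested from IBA to LT, of which 10 rose, 4 fell and 18 were not called, beside 49.8% of all units called. Their median log2 change was 0.23. Of 6 assembly and regulator units, 3 rose and 1 fell. The unit of Rogdi, a component of the complex that reassembles V1 with V0, and Glyr1 rose by 1.63 (SE 0.18, adjusted p = 3.1e-05), and Dmxl2, a rabconnectin of the same complex, rose by 0.67 (SE 0.17, adjusted p = 0.0054). Wdr7, the partner of the rabconnectins, fell by 0.73 (SE 0.14, adjusted p = 0.0012), from 538 to 324 CPM.

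Of 10 units for Ragulator, the Rag GTPases and their regulators, 2 rose and 2 fell from IBA to LT, beside 49.8% of all units called. Lamtor3, a Ragulator scaffold subunit, rose by 1.14 (SE 0.21, adjusted p = 0.00075), and the unit of Rheb, the GTPase that activates mTORC1, with G15701 rose by 0.99 (SE 0.12, adjusted p = 4.4e-05). The unit of Rraga, which encodes a Rag GTPase, fell by 0.93 (SE 0.27, adjusted p = 0.012), from 15.0 to 7.97 CPM. Its course was not the same in early torpor, since it rose from IBA to Ent by 0.88 (SE 0.23, adjusted p = 0.021), stood at 28.0 CPM in both Ent and ET, and fell from ET to LT by 1.81 (SE 0.27, adjusted p = 0.021). Fnip2, a folliculin partner, fell by 0.86 from IBA to LT (SE 0.29, adjusted p = 0.026).

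Of 11 units for lysosomal and endosomal channels and membrane proteins, 1 rose and 1 fell from IBA to LT, beside 49.8% of all units called. Laptm4b, a lysosomal membrane protein, rose by 1.16 (SE 0.26, adjusted p = 0.0031), from 68.0 to 152 CPM. Clcn3, a chloride-proton exchanger of endosomes, fell by 0.83 (SE 0.32, adjusted p = 0.045), a call lost under 14 of 26 alternatives, and its change was −0.47 without LT replicate 3 and −1.31 without LT replicate 1. Of the MiT/TFE transcription factors, which drive lysosomal genes, Mitf rose by 0.66 (SE 0.24, adjusted p = 0.036) and Tfeb was not called (62.0 CPM in IBA and 76.3 in LT, adjusted p = 0.49). Mitf had 66.0 ± 15.1 CPM in ET and 111 ± 24.1 in SA (SD, n = 3), where IBA had 68.5 ± 8.59 (SD, n = 3) and LT 108 ± 16.7 (SD, n = 2). With season as a covariate its IBA to LT change was 0.17 and not called.

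The single-gene units whose log2 CPM followed Atp6v1b2 most closely over the 14 libraries were Nufip2 (Pearson r = 0.961), Hsp90aa1 (r = 0.941), Luc7l (r = 0.933), Cnn3 (r = 0.931) and B3gnt2 (r = 0.930). These r describe likeness over libraries that share their normalization and fall into cold and other groups, and 46 single-gene units reached an r of at least 0.9. Nufip2, an RNA-binding protein, had a mean of 203 CPM in IBA and 422 in LT, and Hsp90aa1, the inducible cytosolic HSP90, had 28.9 in IBA and 130 in LT. The Atp6v1b2 means over the same states were 102 and 183 CPM.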

How the data were processed

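The authors trimmed GRO-seq reads with cutadapt, aligned them to HiC_Itri_2 with BWA and counted uniquely aligned reads with featureCounts on gene bodies that they had extended with fstitch, merged where genes overlapped and shortened by the first 500 nt. The deposited values are these raw counts per unit and library, not normalized and not pooled. Tool versions were not given in the sources used here.

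Counts of all 6324 units and 14 libraries were normalized by TMM and fitted with edgeR 4.0.16 (R 4.3.3) by the quasi-likelihood method on the 5 states. No unit was filtered. Benjamini-Hochberg adjustment covered every unit, with calls at 0.05 and the study's 0.001 as an alternative. Log2 CPM used a prior count of 2. Alternatives included DESeq2 1.42.0, limma-voom (limma 3.58.1), other scalings, season, a replicate block and leaving out each library. The steps were tried on simulated counts in which every unit had the same spread, so their error rates in these data were not measured.

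Named genes are every member with a unit, the 2 largest called rises and falls per list from IBA to LT, the 5 units most like Atp6v1b2, and the genes that share a merged unit. Cell type markers came from lists. Atp6v0e1 and Tfeb were named besides, after their values were seen. Members, lists and tests were chosen with earlier results of these data known. Of the lists, 10 members, 17 other subunits, 16 assembly and regulator genes, 20 Ragulator genes, 20 channels and membrane proteins, and 4 MiT/TFE factors were looked up by symbol. No genome or sequence was used here.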

Additional observations from a re-analysis of the deposited data

How the results depend on the processing

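The counts of members called were 0 from SA to IBA, IBA to Ent and ET to LT under all alternatives run. At the study's threshold of 0.001 the count was 1 among the 5 states and 0 from Ent to ET, IBA to LT and Ent to LT, and 6 listed units were called from IBA to LT. DESeq2 called 4 members among the 5 states (Atp6v0a1 and the Atp6v1c1 unit in addition), where it called 4399 of all 6324 units. From Ent to ET it called 2 (Atp6v0d1 in addition), beside 2183 of all units. Scaling to uniquely mapped reads also gave 2 from Ent to ET, beside 1919 of all units. From IBA to LT, 4 members were called with only these states fitted, beside 3701 of 6324 units. With season as a covariate 1 was called, beside 2253 units. From Ent to LT, 1 was called in the same-season libraries alone, beside 1667 units. With single-gene units only, 8 listed units were called from IBA to LT, beside 2413 of 4705 units, and merged units no longer entered.

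Leaving out each library in turn gave 1 to 4 members called among the 5 states, 1 to 2 from Ent to ET, 1 to 4 from IBA to LT and 0 to 3 from Ent to LT, and 10 to 18 listed units from IBA to LT. The counts of 4 came without SA replicate 2, where 4023 of 6324 units were called among the 5 states and 3341 from IBA to LT. The count of 0 came without LT replicate 1, where 632 units were called from Ent to LT. The cause of these shifts was not tested. The call of Atp6v0d1 from Ent to LT was lost under 9 of 27 alternatives and that of Atp6v1b2 under 3 of 27, and from IBA to LT each was lost under 2 of 26. Among listed genes, Clcn3 lost its call under 14 of 26, Mitf under 7, Fnip2 under 6 and Rraga under 5 of 25.

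With the replicate number as a block, 1 member was called from Ent to LT, beside 1475 of 6324 units. Atp6v0d1 was not called (0.76, adjusted p = 0.063), and no other count of members changed. The replicate numbers did not pair the samples. Deviations of 26 same-numbered pairs correlated with r from −0.26 to 0.23, and 3 of 14 libraries correlated best with their own number.

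Changes that turned in sign were not called in either setting. From IBA to Ent, season as a covariate gave −0.037 for Atp6v1b2 and 0.40 for Atp6v0a1, and from IBA to LT it gave 0.15 for Atp6v0a1. Atp6v1a from Ent to LT was 0.0066 with DESeq2 size factors, 0.0062 with DESeq2, 0.019 with uniquely mapped reads, 0.0034 with single-gene units only and 0.0060 with season, and −0.22 to 0.17 with a library left out. Atp6v0a1 from ET to LT was −0.016 with upper-quartile normalization, −0.063 with uniquely mapped reads and −0.0038 with limma-voom, and −0.35 to 0.30 with a library left out. Leaving out a library gave −0.47 to 0.079 for Atp6v1b2 from ET to LT and −0.89 to 0.39 for Atp6v0a1 from SA to IBA.

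Scaling to uniquely mapped reads moved the median of all units by 0.18 from IBA to LT, 0.15 from IBA to Ent and 0.12 from Ent to ET, and the share of calls that were rises from 49.8% to 62.6%, 54.4% to 77.4% and 53.3% to 67.5%. Atp6v1b2 and Atp6v0d1 then rose from IBA to LT by 1.03 and 1.06, and the Atp6v1c1 unit by 0.57 (edgeR, adjusted p = 0.0083). Groups of 2 and 3 libraries limit what these tests can detect.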
